A study of Mus musculus with 9 samples.

Results

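The 3 arrays of mouse embryonic stem (ES) cells given the microRNA let-7c were compared directly with the 3 arrays of the same cells given miR-294. These are 6 of the 9 arrays of the study and were chosen by their titles. The other 3, from mock-transfected cells, serve below to tell which of the mimics moved a gene. All cells were Dgcr8 -/-. Let-7c cells and miR-294 cells received a synthetic miRIDIAN mimic of that microRNA at 50 nM with the transfection reagent Dharmafect 1, all cultures were grown without leukaemia inhibitory factor (LIF), and RNA was taken at 12 h. Each group had 3 biological replicates. No group had a control mimic, but in the direct comparison both groups received transfected RNA. The mimics change a microRNA by transfection of a synthetic duplex, and how much of it entered the cells was not measured on these arrays.

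MicroRNAs are short RNAs that guide Argonaute proteins to messenger RNAs, mostly by pairing of their seed with sites in the 3′ untranslated region, and such messages are translated less and decay faster. Dgcr8 is the partner of Drosha in the cut that starts the maturation of most microRNAs, so cells without it lack most of their own. Normal ES cells are rich in the miR-290 family, to which miR-294 belongs and which helps them pass from G1 to S phase. Let-7 microRNAs are scarce in ES cells, where Lin28 proteins block their maturation, and become abundant as cells differentiate. The comparison asks which transcripts these families set apart in cells that start with neither.

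The mature sequences of the microRNAs are shown because the seed, bases 2 to 8 and here in capitals, is the main part that selects targets, and the seeds differ. The labels name the mimics without giving their sequence, and the 5p strand of let-7c and the 3p strand of miR-294, the abundant strands, are given from RefSeq (GRCm38.p6).
mmu-let-7c-5p: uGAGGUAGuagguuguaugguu
mmu-miR-294-3p: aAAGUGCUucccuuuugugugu
Mature let-7c is encoded at chr16:77599672-77599693 and chr15:85706616-85706637, both on the plus strand, and miR-294-3p at chr7:3220691-3220712, also on the plus strand. In the RefSeq table the let-7c seed is shared by 11 mature microRNAs from 13 hairpins and the miR-294 seed by 5. Relatives that differ outside the seed are shown for comparison.
mmu-let-7a-5p: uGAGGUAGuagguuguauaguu
mmu-miR-98-5p: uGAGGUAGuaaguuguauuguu
mmu-miR-291a-3p: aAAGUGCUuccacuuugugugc
mmu-miR-302b-3p: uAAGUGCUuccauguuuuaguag

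All values are levels on the log2 scale of probe intensity, and a difference of 1 is a 2-fold change. Of 19938 genes named on the array, 13182 were bright enough to test, and across these the correlation was at least 0.995 within each group, against 0.966 to 0.973 between a let-7c and a miR-294 array. The pluripotency markers Pou5f1, Sox2 and Nanog lay between the 96.4 and the 99.0 percentile of all probe sets on every array. Of 9 markers of other cell types looked up in the same way, the trophoblast marker Elf5 and the fibroblast marker Dcn were below the brightness filter. The other 7 passed it, at percentiles between 41.0 and 73.7: the neural markers Sox1 and Pax6, the endoderm markers Gata4 and Gata6, the trophoblast marker Hand1 and the fibroblast markers Thy1 and Col1a1. Whether a difference in a culture comes from fewer cells of a type or from less RNA per cell cannot be told apart in bulk RNA.

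The mimics set apart about as many genes in each direction, but the large differences were mostly of genes higher with let-7c. Of the genes tested, 26.2% were above the miR-294 level with let-7c and 24.5% were below it (limma, adjusted p under 0.05), together 50.8%. Differences of at least 2-fold were found in 1.23% (162 genes, higher) and 0.402% (53 genes, lower). Among those higher with let-7c 25 differed by at least 1.5 on the log2 scale, and among those lower 3 did. The median difference was 0.35 for genes called higher, -0.29 for genes called lower and -0.01 over all genes tested. In 6505 of the called genes the 3 let-7c arrays lay entirely above or entirely below the 3 miR-294 arrays. Over all tested genes, called or not, such separation upward was seen in 28.7% and downward in 28.3%.

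**Figure D1:**
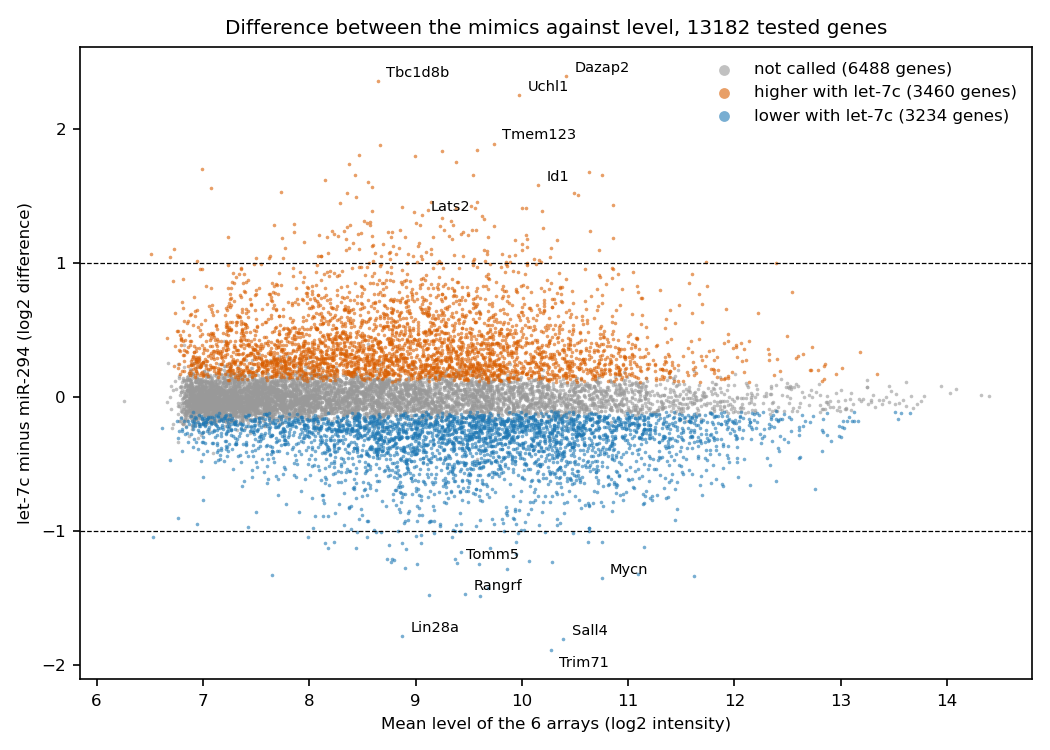
Each point is a tested gene, with its mean level over the 6 mimic arrays (log2 intensity) on the x axis and let-7c minus miR-294 (log2 difference) on the y axis, and coloured points are genes called by limma. Points above 1.5 outnumber points below -1.5, by 25 to 3 among called genes.

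Dazap2, which encodes a small proline-rich protein, differed most. Its level was 11.59, 11.65 and 11.61 on the let-7c arrays, 9.09, 9.24 and 9.32 on the miR-294 arrays and 11.54, 11.60 and 11.60 on the mock arrays. The let-7c arrays thus sat with mock, and the miR-294 arrays stood far below both without overlap, a 5.28-fold difference between the mimics. Uchl1, which encodes a neuronal ubiquitin hydrolase, read 11.05, 11.08 and 11.18 with let-7c, 8.73, 8.91 and 8.89 with miR-294 and 10.89, 10.98 and 11.01 with mock, a 4.78-fold difference between the mimics. Its let-7c arrays lay slightly above all mock arrays, a difference that did not pass the test, and its miR-294 arrays far below both. Tbc1d8b, a member of a family of Rab GTPase regulators, read 9.80, 9.90 and 9.77 with let-7c, 7.58, 7.48 and 7.33 with miR-294 and 9.55, 9.61 and 9.56 with mock. Here too the let-7c arrays were above all mock arrays and the miR-294 arrays below them, 5.14-fold apart, and both differences from mock passed the test.

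The next genes higher with let-7c fell into the same kinds of pattern. The membrane protein gene Tmem123 differed by 1.89 ± 0.05 (± is the standard error of a difference) and Ankrd52, a regulatory subunit gene of protein phosphatase 6, by 1.80 ± 0.06. For both, let-7c lay within 0.04 of mock and miR-294 was lower by 1.85 and 1.80. Meioc, a meiosis gene (1.88 ± 0.13), Hipk3, a kinase gene (1.85 ± 0.06), Serpinb9b, a protease inhibitor gene (1.84 ± 0.07), and the profilin gene Pfn2 (1.81 ± 0.07) were above mock with let-7c and below it with miR-294. So were the ubiquitin ligase gene Marchf8 (1.76 ± 0.08), Armcx3 (1.74 ± 0.10) and the zinc finger gene Hivep2 (1.71 ± 0.10). In Armcx3 the distances from mock were alike in size, 0.78 up with let-7c and 0.96 down with miR-294. The brightest of 3 Armcx3 probe sets was used, and it may read another locus. The limma adjusted p of these 9 genes lay between 1.74e-09 and 5.63e-07.

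The genes lower with let-7c were led by developmental regulators. Trim71, an RNA-binding ubiquitin ligase gene of stem cells, read 9.22, 9.40 and 9.36 with let-7c, 11.16, 11.27 and 11.23 with miR-294 and 10.86, 10.84 and 10.83 with mock. Sall4, a zinc finger factor of pluripotency, read 9.50, 9.53 and 9.42 with let-7c, 11.31, 11.35 and 11.22 with miR-294 and 10.93, 11.00 and 10.83 with mock. In both genes most of the distance came from let-7c arrays far below mock, and the miR-294 arrays were all above mock.

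Lin28a, whose protein blocks let-7 maturation, read 7.71, 8.09 and 8.14 with let-7c, 9.39, 10.06 and 9.85 with miR-294 and 8.57, 8.62 and 8.50 with mock. Its order was the same, but most of its distance lay above mock: miR-294 was 1.20 above and let-7c 0.59 below. Its arrays also spread more than those of Trim71 and Sall4, with standard deviations of 0.23 for let-7c and 0.35 for miR-294. Rangrf, a gene for a partner of the GTPase Ran, read 8.74, 8.67 and 8.79 with let-7c, 10.19, 10.20 and 10.21 with miR-294 and 9.09, 9.09 and 9.15 with mock. Like Lin28a, it owed more of its difference (-1.47 ± 0.04, limma adjusted p = 2.74e-09) to miR-294. The brightest of 3 Rangrf probe sets was used, and it may read another locus.

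The other genes among the 12 largest differences in this direction were closer to the Trim71 pattern. Cdc34, a ubiquitin-conjugating enzyme gene (-1.49 ± 0.06), Nr6a1, an orphan nuclear receptor gene of early embryos (-1.48 ± 0.06), Mycn (-1.35 ± 0.04), Tbc1d13 (-1.32 ± 0.05) and the nucleolar gene Rrp1b (-1.29 ± 0.05) were below mock with let-7c and above it with miR-294. Trim6 (-1.43 ± 0.05), the oncofetal RNA-binding protein gene Igf2bp1 (-1.34 ± 0.05) and Zfp473 (-1.33 ± 0.07) were below mock with let-7c and not called with miR-294. All 8 had a limma adjusted p between 3.13e-09 and 1.29e-07.

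**Figure D2:**
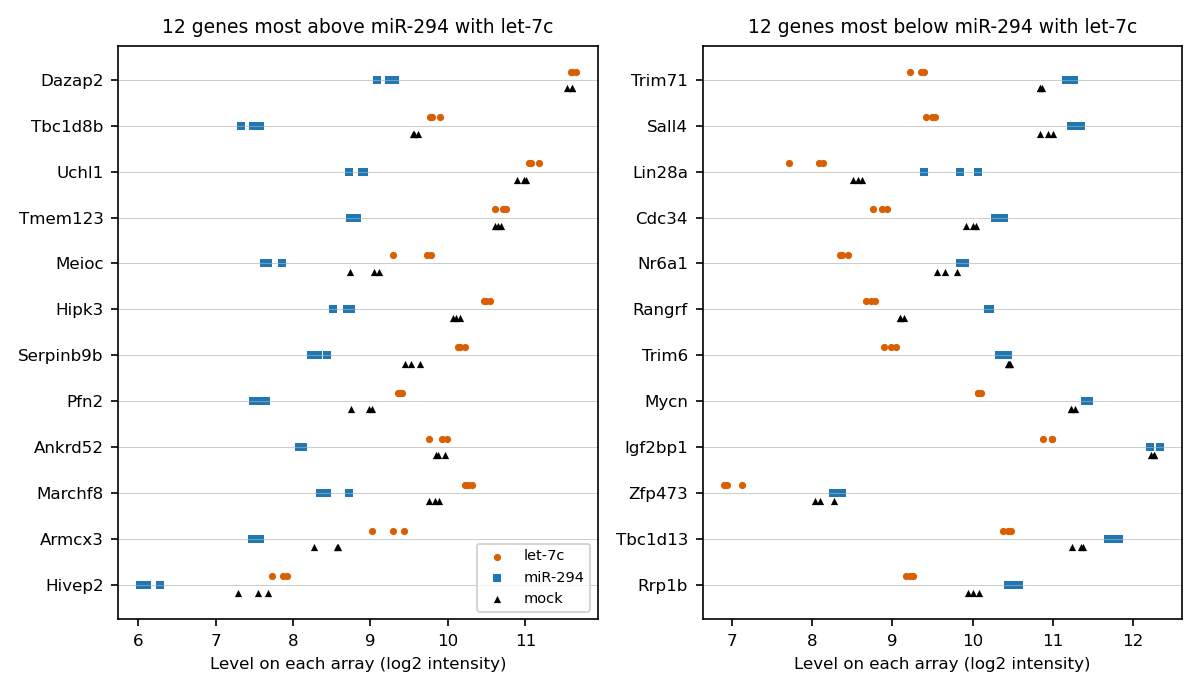
Points are single arrays, coloured by group, for the 12 named genes with the largest difference in each direction, and the x axis is the level (log2 intensity). In every gene shown the 3 let-7c points are clear of the 3 miR-294 points, and the mock points of Dazap2 and Uchl1 lie near those of let-7c.

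Which of the mimics moved each of the 6694 differing genes was read from each mimic against mock. These comparisons share the mock arrays, so their calls are not independent. Against mock, let-7c changed 28.7% of all tested genes (13.9% up, 14.8% down) and miR-294 41.9% (20.7% up, 21.1% down). miR-294 alone was called against mock in 2788 of the differing genes (41.6%) and let-7c alone in 1448 (21.6%). Opposite changes were called in 1123 (16.8%), changes of unequal size in the same direction in 328 (4.9%), and a change with neither in 1007 (15%). Some of these counts changed when 1 array was left out. For opposite changes and for neither mimic, the shift was similar whichever mock array was left out. Opposite changes numbered 796, 780 and 765 without mock replicates 1, 2 and 3. The genes called with neither mimic numbered 1518, 1574 and 1654 without mock replicates 1, 3 and 2, and the genes moved in the same direction 187, 217 and 211 without mock replicate 2, mock replicate 3 and let-7c replicate 3.

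Among the largest differences the make-up was another. Of the 162 genes at least 2-fold higher with let-7c, 82 (50.6%) had moved in opposite directions and 67 (41.4%) with miR-294 alone. The 82 had median differences from mock of 0.43 with let-7c and -0.77 with miR-294. Of the 53 at least 2-fold lower with let-7c, 40 (75.5%) had moved in opposite directions, with medians of -0.67 and 0.43, and 9 (17%) with let-7c alone. So the large differences upward lay mostly in genes that miR-294 lowered, and those downward in genes that let-7c lowered. None of the genes past 2-fold had been called with neither mimic.

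**Figure D3:**
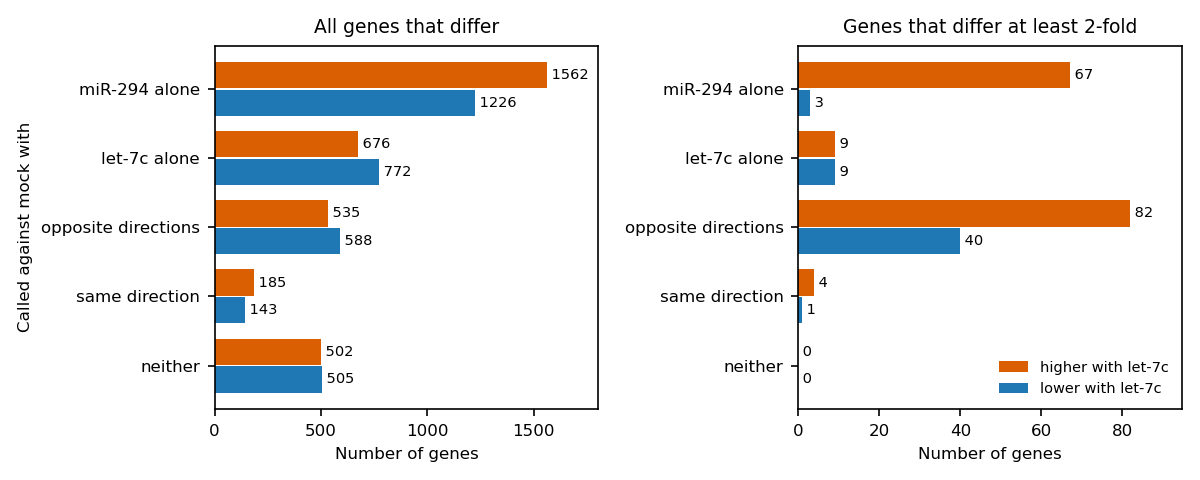
Bars give the number of genes by which mimic was called against mock, on the left for all called genes and on the right for genes at least 2-fold apart, split into higher and lower with let-7c. miR-294 alone is the longest class on the left (2788 genes), and opposite directions leads on the right (82 higher and 40 lower).

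Genes at the head of each class show what the classes hold. With let-7c alone, higher genes included the adhesion gene Flrt2, the lysophosphatidic acid receptor gene Lpar4, the prostaglandin synthase gene Ptgs2 and Gpnmb, and lower genes included Trim6, Arid3b, Pbx2 and the MAP kinase phosphatase gene Dusp9. With miR-294 alone, higher genes included Dazap2, Uchl1, Tmem123, the peptidase gene Erap1 and Cd109, all below mock with miR-294. Lower genes in that class were above mock with miR-294, among them Tomm5, a subunit gene of the mitochondrial import pore (-1.24 ± 0.05), and Eras, an ES cell Ras gene (-0.95 ± 0.08).

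In the same-direction class both mimics lowered 211 genes, miR-294 further in 143 and let-7c further in 68, and both raised 117, miR-294 further in 75 and let-7c in 42. Dicer1, for the nuclease of the last step of microRNA maturation, read 9.74, 9.64 and 9.63 with let-7c, 10.91, 10.92 and 10.88 with miR-294 and 11.07, 11.12 and 11.06 with mock, so let-7c lowered it further (-1.23 ± 0.05 between the mimics). Ago1, which encodes an Argonaute, was its mirror image, at 10.51, 10.57 and 10.58 with let-7c, 9.49, 9.44 and 9.44 with miR-294 and 10.79, 10.84 and 10.82 with mock (1.10 ± 0.04). The initiator caspase gene Casp2 read 9.56, 9.56 and 9.61 with let-7c, 8.58, 8.46 and 8.54 with miR-294 and 9.77, 9.72 and 9.69 with mock (1.05 ± 0.05). No array of let-7c overlapped one of miR-294 in these genes, and all arrays of both mimics lay below all mock arrays. The limma adjusted p of the 3 differences was 3.04e-08 or lower.

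Known targets of each family separated by family. The members of this and of the following groups come from 35 gene lists with 865 entries, of which 761 passed the brightness filter. The lists were written with earlier results of these data known, so the counts describe their members and are not independent support. A gene could pass through the group where it was bright, so counts cover the tested members and not whole lists, and they are read beside 26.2% higher and 24.5% lower over all genes tested. Of 25 tested known let-7 targets 20 were lower with let-7c than with miR-294 and 2 were higher (median difference -0.91, against -0.01 over all genes). Against mock 20 of the 25 fell with let-7c and 1 rose (median -0.65), while with miR-294 10 rose and 8 fell (median 0.00).

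The let-7 targets lower with let-7c included RNA regulators (Trim71, Lin28a, Lin28b and Igf2bp1), transcription factors (Sall4, Nr6a1, Arid3b, Mycn and Myc) and growth genes such as Nras. Lin28b, the paralogue of Lin28a, read 8.38, 8.37 and 8.39 with let-7c, 8.88, 8.93 and 8.83 with miR-294 and 9.04, 9.04 and 9.11 with mock. Unlike Lin28a it lay below mock with both mimics, further with let-7c (by -0.50 ± 0.04 between the mimics, limma adjusted p = 3.42e-06). Hmga2, an architectural chromatin protein gene and a classic let-7 target, read 8.42, 8.33 and 8.32 with let-7c, 8.51, 8.49 and 8.50 with miR-294 and 8.57, 8.43 and 8.50 with mock. The let-7c arrays were just below the miR-294 arrays (-0.14 ± 0.05, limma adjusted p = 0.0302). That call ended without let-7c replicate 2 (adjusted p = 0.0846) or 3 (0.0977), without miR-294 replicate 1 (0.0686), 2 (0.0625) or 3 (0.0628), and with no brightness filter (0.0612).

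The 5 tested let-7 targets that were not lower are named here after their values were seen. The D-type cyclin gene Ccnd1 was higher with let-7c by 0.26 ± 0.05 and the cyclin-dependent kinase gene Cdk6 by 0.27, while Ccnd2 (0.10), E2f2 (0.10) and Igf1r (0.14) did not pass the test. Ccnd1 read 10.49, 10.56 and 10.56 with let-7c, 10.20, 10.34 and 10.30 with miR-294 and 11.03, 11.10 and 10.99 with mock. It was thus below mock with both mimics, and further with miR-294.

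Of 21 tested known targets of the miR-290 family 19 were higher with let-7c and 0 were lower (median 0.74). Against mock 19 of the 21 fell with miR-294 and 1 rose (median -0.67), and with let-7c 4 rose and 3 fell (median 0.05). The largest differences after Dazap2 were those of Ei24, a p53-induced gene (1.51), Lats2, a kinase gene of the Hippo pathway (1.36 ± 0.09), and Rbl2, a relative of the retinoblastoma gene (1.31 ± 0.09). Rbl2 read 9.27, 9.22 and 9.19 with let-7c, 8.13, 7.67 and 7.94 with miR-294 and 9.16, 9.18 and 9.06 with mock. Lats2 read 9.61, 9.70 and 9.91 with let-7c, 8.25, 8.54 and 8.37 with miR-294 and 9.40, 9.58 and 9.63 with mock. Both were low with miR-294 alone, and the let-7c arrays overlapped those of mock in Lats2 and not in Rbl2. Dkk1 (-0.10), a Wnt antagonist gene, and Lefty2 (-0.03), a Nodal antagonist gene, did not pass the test and are named after their values were seen.

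**Figure D4:**
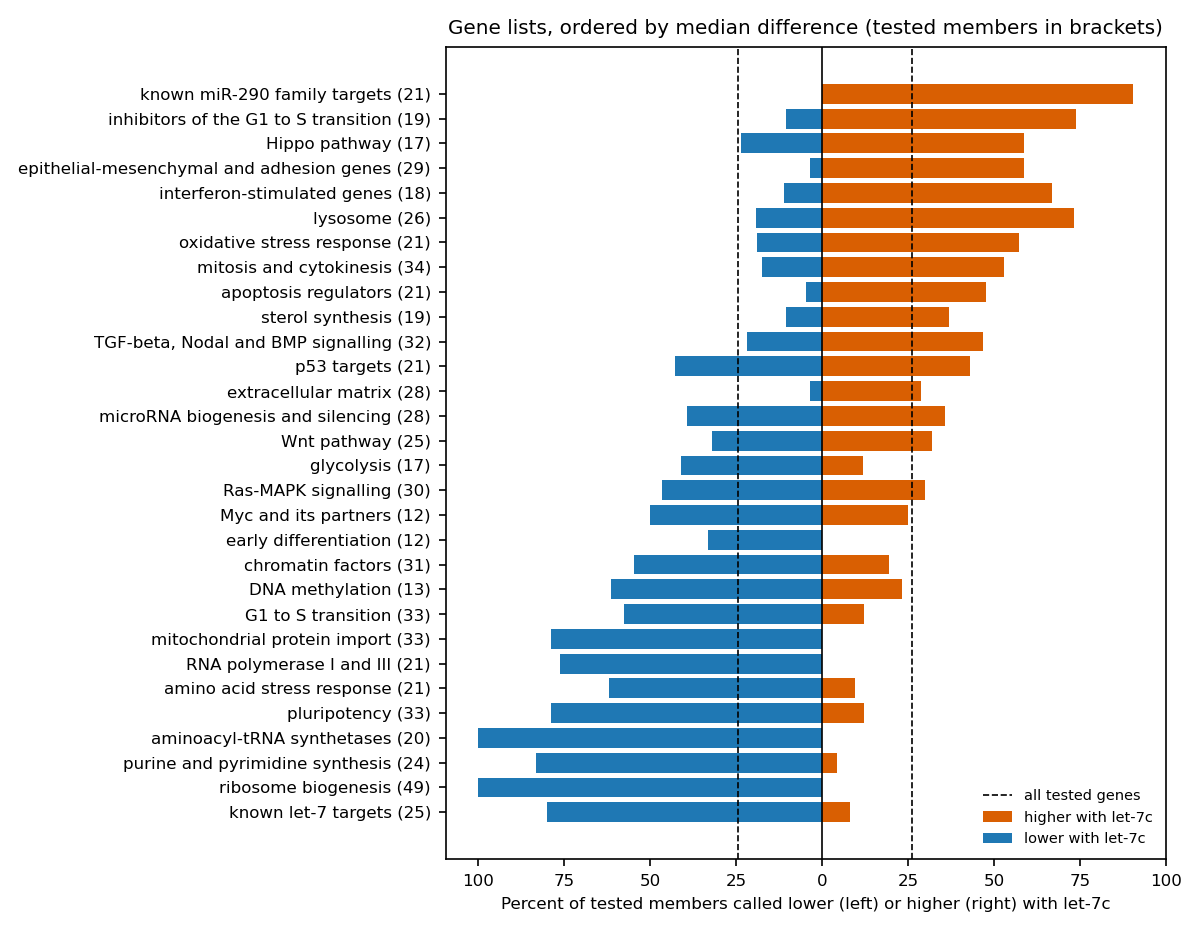
Bars give the percent of tested members called lower (left) or higher (right) with let-7c for each list with at least 10 tested members, ordered by median difference with the number tested in brackets, and dashed lines mark all tested genes (24.5% and 26.2%). Known let-7 targets (20 of 25 lower) and miR-290 family targets (19 of 21 higher) stand at the ends of the order.

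Pluripotency genes were mostly lower with let-7c, by amounts that differed widely. Of 33 tested, 26 were lower and 4 higher (median -0.37), and against mock 18 fell with let-7c while 15 rose with miR-294. The list shares Trim71, Sall4 and Lin28a with the let-7 targets. The others with the largest differences were Eras (-0.95), Tcl1, a coactivator gene of the kinase Akt (-0.93), and Nr5a2, a nuclear receptor gene of the naive state (-0.84). Nanog read 11.82, 11.86 and 11.85 with let-7c, 12.28, 12.21 and 12.15 with miR-294 and 12.31, 12.31 and 12.27 with mock, low with let-7c alone (-0.37 ± 0.05, limma adjusted p = 3.94e-05). Pou5f1, which encodes Oct4, read 12.99, 13.02 and 13.03 with let-7c, 13.08, 13.11 and 13.09 with miR-294 and 13.15, 13.08 and 13.10 with mock. Its difference did not pass the test (-0.08 ± 0.04, limma adjusted p = 0.132), but did with an intensity trend and robust prior in the model (0.0198). The 4 higher genes, named after their values were seen, were Klf2 (0.24) and 3 of the LIF pathway: the receptor subunit genes Lifr (0.16) and Il6st (0.93) and the transcription factor gene Stat3 (0.25).

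Within the Myc network Mycn and Myc were lower with let-7c and 3 genes of the Mxd family higher. Mycn read 10.07, 10.06 and 10.11 with let-7c, 11.39, 11.43 and 11.45 with miR-294 and 11.22, 11.22 and 11.27 with mock. Myc read 8.50, 8.87 and 8.92 with let-7c, 9.87, 10.16 and 9.89 with miR-294 and 9.05, 9.31 and 9.16 with mock (-1.21 ± 0.11, limma adjusted p = 5.49e-06). Mycn was moved more by let-7c (-1.16 against mock) than by miR-294 (0.19), and Myc more by miR-294 (0.80) than by let-7c (-0.42). Max, whose protein pairs with both, differed by -0.43. The Mxd family genes Mxi1 (0.57), Mxd3 (0.55) and Mxd4 (0.39), whose proteins compete with Myc for Max, were higher. In all, 6 of the 12 tested genes of the network were lower, 3 higher and 3 not called (median -0.12). Not all of the lower genes are named here, so the named genes do not show a split of the whole network by role.

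Genes that build ribosomes were lower with let-7c without exception among those tested. All 49 tested ribosome biogenesis genes were called lower, between -1.29 and -0.19 (median -0.64). Against mock 42 of them fell with let-7c and 0 rose (median -0.28), and 43 rose with miR-294 and 0 fell (median 0.35). The difference between the mimics was therefore made on both sides of mock. Bysl, for a factor of small subunit maturation (-1.13), Wdr74 (-0.98), Nop10, a protein of H/ACA particles that modify ribosomal RNA (-0.98), and Nip7 (-0.95) followed Rrp1b. Rrp1b read 9.25, 9.17 and 9.22 with let-7c, 10.44, 10.58 and 10.48 with miR-294 and 9.94 to 10.07 over the 3 mock arrays, with no overlap between any of the groups.

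Other genes of growth moved the same way by smaller amounts. All 20 tested aminoacyl-tRNA synthetase genes, whose enzymes load transfer RNAs, were lower with let-7c, between -0.66 and -0.17 (median -0.40). Against mock 12 of these fell with let-7c and 14 rose with miR-294. Of 24 genes of purine and pyrimidine synthesis 20 were lower and 1, Ctps2 (0.30), higher (median -0.45), led by Dctpp1 (-1.08), the mitochondrial folate enzyme gene Mthfd2 (-0.79), Dhodh (-0.76) and Ppat (-0.73). Of 21 genes of RNA polymerase I and III 16 were lower and 0 higher (median -0.31), led by Polr3g, a polymerase III subunit gene high in stem cells (-0.88), and Polr1b (-0.75).

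Mitochondrial protein import showed a more lopsided split against mock. Of 33 tested genes 26 were lower with let-7c than with miR-294 and 0 higher (median -0.26), while against mock 22 rose with miR-294 and 11 fell with let-7c. Tomm5 read 8.82, 8.71 and 8.79 with let-7c, 10.03, 10.06 and 9.95 with miR-294 and 8.85, 8.87 and 8.84 with mock. Its let-7c arrays lay just under mock and its miR-294 arrays far above both. Timm8a1, a carrier of membrane proteins between the mitochondrial membranes, differed by -1.09.

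**Figure D5:**
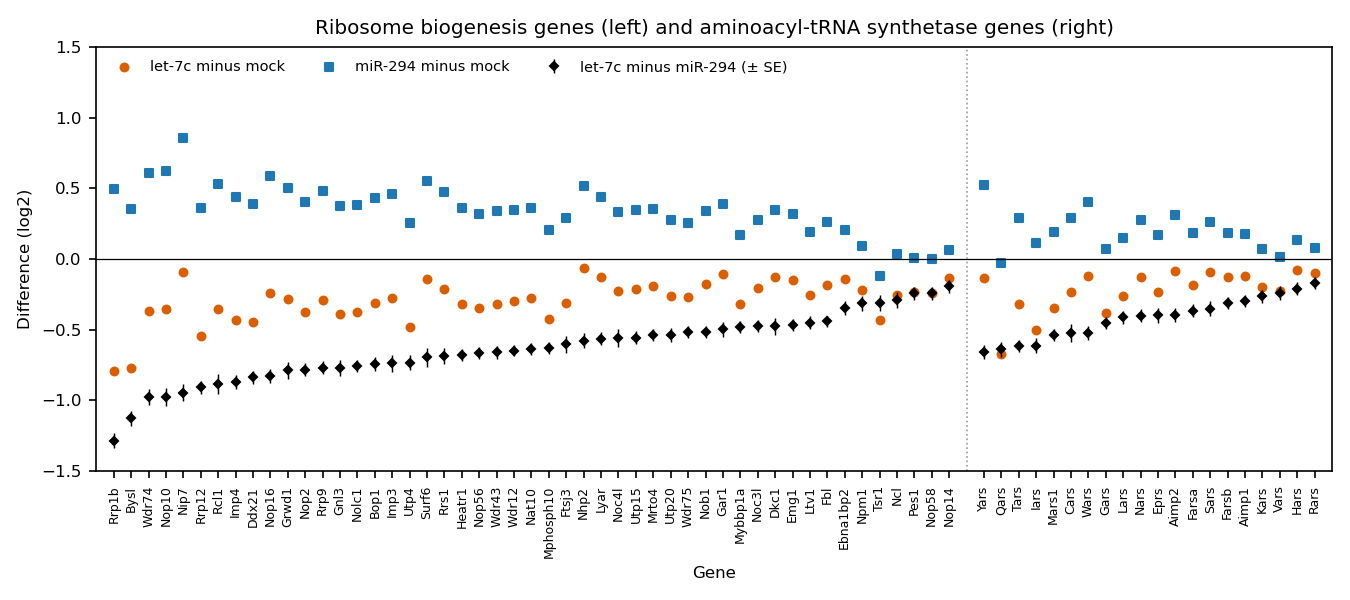
Each gene on the x axis has its let-7c minus miR-294 difference (diamonds, with standard error bars) and its differences from mock with let-7c (circles) and miR-294 (squares) on the log2 scale, for the ribosome biogenesis genes on the left and the aminoacyl-tRNA synthetase genes on the right. The differences between the mimics are below 0 in all 49 and all 20 genes.

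The E-box CACGTG, a palindrome that Myc-Max dimers and other basic helix-loop-helix factors bind, was counted in RefSeq promoters (GRCm38.p6, 250 bases before to 50 after each start). Counted per promoter entry it was in 2349 of 32851 (7.15%). Counted per gene, where a gene with several promoters holds it if any of them does, it was in 1215 of the 10433 tested genes with an entry (11.6%). The shares that follow are per gene and are read beside the 11.6%. Among genes lower with let-7c 14.7% held it, among those higher 11.9% and among those not called 9.91%. Among genes at least 2-fold apart the shares were alike, with 6 of 40 lower (15%) and 21 of 131 higher (16%). In the ribosome biogenesis genes it was in 10 of 44 (22.7%), in the aminoacyl-tRNA synthetases in 3 of 13 (23.1%) and in the lysosomal genes in 10 of 23 (43.5%). The lysosomal genes were mostly higher with let-7c, so lists with a large share of this motif lay on both sides. Lists lower with let-7c could also have a small share, as in 1 of 23 pluripotency genes (4.35%) and 1 of 25 chromatin genes (4%). A match is a description of the letters and not evidence of binding in these cells.

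The 250 bases before the start of 3 genes with the motif are shown, with the motif in capitals, because the genes come from lists that moved in opposite directions. They were chosen after their values were seen. Imp4 and Nop2 encode nucleolar factors, and Lamp1 the main membrane glycoprotein of lysosomes. Imp4 is at chr1:34439579-34439828, Nop2 at chr6:125131633-125131882 and Lamp1 at chr8:13158911-13159160, all on the plus strand.
Imp4: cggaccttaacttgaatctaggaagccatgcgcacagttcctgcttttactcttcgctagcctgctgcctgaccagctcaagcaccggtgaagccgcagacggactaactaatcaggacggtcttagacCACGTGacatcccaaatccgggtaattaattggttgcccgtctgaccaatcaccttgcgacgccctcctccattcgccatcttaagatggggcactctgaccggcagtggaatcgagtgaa
Nop2: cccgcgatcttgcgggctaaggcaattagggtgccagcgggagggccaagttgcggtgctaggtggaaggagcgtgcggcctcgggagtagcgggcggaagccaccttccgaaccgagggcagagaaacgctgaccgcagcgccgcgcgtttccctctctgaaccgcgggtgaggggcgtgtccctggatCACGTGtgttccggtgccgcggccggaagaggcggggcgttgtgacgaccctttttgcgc
Lamp1: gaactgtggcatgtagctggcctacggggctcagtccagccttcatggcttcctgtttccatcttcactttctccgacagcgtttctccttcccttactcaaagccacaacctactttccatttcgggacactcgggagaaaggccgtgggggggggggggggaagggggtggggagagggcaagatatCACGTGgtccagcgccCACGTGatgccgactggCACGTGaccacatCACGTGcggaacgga
Imp4 and Nop2 each hold the motif once and Lamp1 holds it 4 times. Imp4 differed by -0.87 ± 0.05 and Nop2 by -0.78 ± 0.05, and both were below mock with let-7c and above it with miR-294. Lamp1 was higher with let-7c by 0.19 ± 0.05 (limma adjusted p = 0.00923).

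Cell cycle genes split by role. Of 19 tested genes that inhibit entry into S phase 14 were higher with let-7c and 2 lower (median 0.46), and 14 fell against mock with miR-294. Besides Lats2 and Rbl2 these were led by the antiproliferative gene Tob1 (1.20) and the cyclin G2 gene Ccng2 (0.95). Rb1, the retinoblastoma gene itself, differed by 0.85, and Cdkn2b, for an inhibitor of Cdk4 and Cdk6, by 0.46 ± 0.07. The 2 lower genes, E2f5 (-0.81 ± 0.06) and E2f4 (-0.64 ± 0.06), encode repressive E2F factors and were named after their values were seen. Of 33 genes that drive the transition 19 were lower and 4 higher (median -0.19), and 19 fell against mock with let-7c. The phosphatase gene Cdc25a (-0.91), the origin genes Orc1 (-0.85) and Cdc6 (-0.68) and the cyclin E gene Ccne1 (-0.68) differed most. The 4 higher were Ccnd1, Cdk6, E2f1 (0.28) and Rrm1 (0.30), named after their values were seen.

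Mitotic genes leaned the other way by small amounts, with 18 of 34 higher with let-7c and 6 lower (median 0.14). Cdc25b, for a phosphatase that starts mitosis (1.00), and the cytokinesis genes Anln (0.63), Ect2 (0.44) and Kif23 (0.44) were higher, and Birc5 (-0.49) and the separase gene Espl1 (-0.42) lower. Against mock 20 of these genes fell with miR-294 and 6 with let-7c.

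The genes of microRNA biogenesis and silencing had no common direction: of 28 tested, 10 were higher with let-7c, 11 lower and 7 not called. The median of 0.01 changed sign with the arrays centred on the 75th percentile, with the stricter brightness filter and without let-7c replicate 1 or miR-294 replicate 3. Besides Trim71, Lin28a and Dicer1 the largest difference was that of Tarbp2, which encodes a partner of Dicer (-1.25). Besides Ago1, members named after their values were seen were the gene Tnrc6a for its silencing partner (1.09) and the deadenylase gene Cnot6 (0.92) upward, and the export factor gene Xpo5 (-0.49) and Drosha (-0.29) downward. Ago2 (-0.10) did not pass the test. The Dgcr8 probe set read 8.85, 8.94 and 8.91 with let-7c, 9.13, 9.07 and 9.07 with miR-294 and 8.92, 9.08 and 9.03 with mock, in cells whose Dgcr8 gene is disrupted. The let-7c arrays were below those of miR-294 (-0.19 ± 0.05, limma adjusted p = 0.009). Which part of Dgcr8 was deleted is not stated in the labels, and the reading therefore does not check the genotype.

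In TGF-beta, Nodal and BMP signalling receptors moved in both directions. Of 32 genes 15 were higher with let-7c and 7 lower (median 0.11). The type II receptor genes Tgfbr2 (0.76) and Bmpr2 (0.66) were higher, and the activin receptor genes Acvr2b (-0.84 ± 0.05) and Acvr1b (-0.56) lower. Among ligands Bmp4 was lower (-0.67 ± 0.10), and the BMP target genes Id1 (1.58), Id3 (0.77) and Id2 (0.61) were higher. Some of these are outside the 4 largest of the list and were named after their values were seen.

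Other signalling pathways were mixed. Of 30 Ras-MAPK genes 14 were lower with let-7c and 9 higher (median -0.11), and the 14 became 9 without let-7c replicate 3 and 7 without miR-294 replicate 2. The largest differences were those of the phosphatase gene Dusp9 (-1.09), Nras (-0.96), Eras and Etv4 (-0.45) downward, and the early response gene Egr1 (0.78) and the exchange factor gene Sos1 (0.77) upward. In the Hippo pathway 10 of 17 were higher, including Lats2, its relative Lats1 (0.86) and the Yap targets Ccn1 (0.80) and Ccn2 (0.76). Yap1 (-0.36) and Tead4 (-0.45) were among the 4 lower, named after their values were seen. Of 25 Wnt genes 8 were higher and 8 lower, and the 8 higher became 5 without let-7c replicate 3 or without miR-294 replicate 3. Wls, needed to secrete Wnt ligands, was the highest (1.18) and the repressor gene Tcf7l1 the lowest (-0.85).

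Of 29 tested genes of adhesion and the epithelial-mesenchymal switch 17 were higher with let-7c, 1, the P-cadherin gene Cdh3 (-0.33), was lower and 11 did not pass the test (median 0.28). The 17 became 12 without miR-294 replicate 2 or 3, and the 1 lower became 0 or 2 without single arrays: 2 without let-7c replicate 1, and 0 without let-7c replicate 2 or 3 or miR-294 replicate 1 or 3. The GTPase gene Rhoc (1.28), the N-cadherin gene Cdh2 (1.19), the vimentin gene Vim (1.00) and the repressor gene Zeb1 (0.81) led, and the E-cadherin gene Cdh1 (0.15) did not pass the test. Against mock 11 of the list fell with miR-294 and 7 rose with let-7c. The epithelial keratin gene Krt8 was also higher (0.71), so the list did not divide into mesenchymal genes up and epithelial genes down. Extracellular matrix genes differed less, with 8 of 28 higher and 1 lower (median 0.04), and the higher share is close to the 26.2% of all genes. The 1 lower became 4 without let-7c replicate 1, and the median became 0.08 without let-7c replicate 2.

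Interferon-stimulated genes were mostly higher with let-7c, at 12 of 18 higher and 2 lower (median 0.26), and against mock 11 fell with miR-294 and 0 rose. Irgm1, an immunity GTPase gene (1.53), and the regulators Irf2 (1.12 ± 0.06) and Irf1 (1.06) led, followed by Xaf1 (0.96). The viral RNA sensor gene Ddx58 differed by 0.17, and Oas1a (-0.35 ± 0.10) and Trim25 (-0.25) were lower, the last 3 named after their values were seen. With a stricter brightness filter 13 of the genes were tested and the median was 0.78.

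Genes of p53 and cell death had no common direction for p53 and a small one for apoptosis. Of 21 p53 targets 9 were higher and 9 lower (median 0.07), with Ei24, Casp2, the cyclin G1 gene Ccng1 (0.83) and Rrm2b (0.82) highest. Of 21 apoptosis regulators 10 were higher and 1, the cytochrome c gene Cycs (-0.22), lower (median 0.14). The 1 lower became 2 without let-7c replicate 3 or miR-294 replicate 3 and 0 without miR-294 replicate 1 or 2. Besides Casp2 these included the effector gene Bak1 (0.60), Bnip3 (0.58) and the survival gene Mcl1 (0.32).

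Chromatin genes were more often lower with let-7c, with 17 of 31 lower and 6 higher (median -0.17). Arid3b (-1.22), the BAF remodelling subunit gene Smarcd1 (-1.02) and the Polycomb partner gene Mtf2 (-0.92) were lower and the remodelling ATPase gene Smarca2 (0.80) higher. The catalytic Polycomb gene Ezh2 (0.02) did not pass the test. Of 13 DNA methylation genes 8 were lower and 3 higher (median -0.19). Dnmt3b, a de novo methyltransferase gene, was lower by 1.17 on the log2 scale and the methyl-CpG reader gene Mbd2 higher by 1.03.

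Catabolic and stress genes also differed. Of 26 lysosomal genes 19 were higher with let-7c and 5 lower (median 0.22), led by Lamp2 (1.41), Gpnmb (1.04) and Scarb2 (0.61). The enzyme gene Gla (-0.34) was the lowest of the 5, which became 3 without let-7c replicate 2, miR-294 replicate 2 or miR-294 replicate 3. Of 21 genes of the oxidative stress response 12 were higher and 4 lower (median 0.19), led by the cystine transporter gene Slc7a11 (1.03), Srxn1 (0.82) and the autophagy receptor gene Sqstm1 (0.79), while the ferritin light chain gene Ftl1 was lower (-0.69 ± 0.05). Of 21 genes of the amino acid stress response 13 were lower and 2 higher (median -0.34), led by Mthfd2 and the amino acid transporter genes Slc7a5 (-0.69) and Slc7a1 (-0.62), with the regulator gene Atf4 at -0.47. The 2 higher became 4 without let-7c replicate 2. Against mock 13 of these rose with miR-294 and 3 fell with let-7c.

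Sterol synthesis genes (7 of 19 higher, 2 lower, median 0.13) and glycolysis genes (2 of 17 higher, 7 lower, median -0.05) were closer to the background. The sterol median was 0.08 without miR-294 replicate 1. The sterol sensor gene Insig1 (0.41) and the monocarboxylate transporter gene Slc16a1 (-0.55) had the largest differences in these lists.

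Markers of other cell types gave few calls. Of 12 early differentiation genes 4 were lower with let-7c and 0 higher (median -0.16, or -0.10 without let-7c replicate 2), and Dnmt3b and Nodal (-0.39) were the largest. Neurectoderm markers had 2 of 8 higher, Nes (0.70) and Map2 (0.47), and 1 lower, Tubb3 (-0.30), primitive endoderm markers 1 and 1 of 8, trophoblast markers 1 and 1 of 5 (2 lower without mock replicate 3), fibroblast markers 0 and 0 of 6 (1 lower without let-7c replicate 1), and the 1 tested marker of 2-cell-like cells was not called. Levels were also summed over all markers of a list found on the array, including those below the brightness filter. The summed level of the 12 fibroblast markers was 84.1 to 87.7 with let-7c and 84.4 to 86.6 with miR-294, overlapping. That of the 12 primitive endoderm markers was 86.9 to 88.4 and 87.6 to 87.9, also overlapping. The sums of the 11 neurectoderm markers, 86.7 to 87.3 and 85.9 to 86.6, did not overlap and were higher with let-7c. Those of the 10 trophoblast markers, 67.8 to 68.1 and 68.6 to 69.2, did not overlap either and were lower with let-7c. Only 5 of these 10 passed the brightness filter, so this sum rests in part on dim probe sets. The summed level of the 34 pluripotency genes was 359.7 to 360.5 with let-7c and 372.8 to 375.6 with miR-294. The part of changes in cell make-up in these results was not tested.

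Small nucleolar RNA genes (snoRNAs, which guide the modification of ribosomal RNA) were mostly lower with let-7c. Of 49 tested 43 were lower and 2 higher (87.8% lower, median -0.57), against 24.6% lower among 12522 protein-coding genes. Many snoRNAs lie in introns of other genes, and a probe set may also read the host transcript, so these values are uncertain. Snora75 (-1.04) and Snora74a (-1.02) were among the 6 genes furthest below the miR-294 level in the class that miR-294 alone moved. Of 165 tested microRNA genes 45 were higher (27.3%) and 32 lower (19.4%, median 0.01). Over all tested genes these shares were 26.2% and 24.5%, so the microRNA genes were close to the background. Of 288 long non-coding RNA genes 24 were higher (8.33%) and 48 lower (16.7%, median -0.05), both below the background. Calls were fewest among dim genes: with the tested genes split by level into 4 equal bins, 25.6% were called in the dimmest and 49.1%, 63.9% and 64.6% in the brighter ones.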

How the data were processed

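RNA from 3 let-7c, 3 miR-294 and 3 mock cultures was read on 1-colour microarrays. The authors deposited 1 value per array for 35557 probe sets, made with GCRMA (background correction, normalization and summary of probes) per the submitters' processing notes, which give no version or settings. Their range put the deposited values on a log2 scale of intensity (2.54 to 15.0), which no header states, and every fold rests on that reading. Array medians lay between 7.36 and 7.41, and no pair of arrays shared more than 0.0309% of values. The number of arrays limits the precision. P-values set a difference of group means against the spread between these biological replicates, estimated over the 3 groups and moderated across genes.

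Probe sets were named from GEO's annotation, with 21698 symbols matched by gene ID to RefSeq and 91 kept as given. Of all probe sets 21789 had 1 symbol, 1621 several and 12147 none, and genes were named only from the first. For each of 19938 genes (999 with several probe sets) the probe set with the highest mean was used. In 3 of the called genes, Apobec3, Camta1 and Tlcd3a, another probe set was called in the opposite direction. The probe set used for Rangrf (chromosome 11) is numbered among those of chromosome 3 genes, and that for Armcx3 (X) among those of chromosome 7 genes. That for Bnip3 (chromosome 7) is numbered between those of chromosome 13 and 14 genes. These 3 may therefore read a related sequence elsewhere, which was not tested. The brightness filter asked for 3 or more arrays above the 40th percentile of their array and kept 13182 and left out 6756.

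Limma 3.58.1 in R 4.3.3 fitted all 9 arrays with 1 mean per group (6 residual degrees of freedom), with the contrast let-7c minus miR-294 and each mimic minus mock. Benjamini-Hochberg adjustment ran over all tested genes, two-sided, at 0.05. The code of the test was checked on simulated arrays with independent noise and few changed genes. Those settings differ from these data, so the check does not bear on the calls made here. Lists were described by counts and medians, with no set test.

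The members and lists were chosen with earlier results of these data known. Named genes were the 12 largest called differences in each direction with arrays that do not overlap, the 6 largest per direction in each class, up to 4 per list, and a fixed set (Trim71, Sall4, Lin28a, Lin28b, Mycn, Myc, Dicer1, Hmga2, Rbl2, Lats2, Casp2, Dgcr8, Pou5f1 and Nanog), leaving out predicted and clone names. Further genes were named after their values were seen, in particular members that went against their list, genes that a sentence needed to cover a pathway's parts and examples past the first 4 of a list. Alternatives covered the replicate number as a block, the variance model, the normalization, the brightness filter, the probe set per gene, the arrays in the fit and leaving out each array. A count of seed matches in target transcripts was not run, since no transcript sequences were used here.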

Additional observations from a re-analysis of the deposited data

How the results depend on the processing

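The counts of genes higher and lower with let-7c stayed within 1.5 times their values under every alternative run, at 2921 to 3731 and 2921 to 3606, as did the counts of at least 2-fold differences, at 142 to 175 and 48 to 62. Without each array in turn they were 3059 to 3426, 2921 to 3172, 142 to 175 and 48 to 61. Centring the arrays on the 75th percentile gave 3204 higher and 3606 lower. Genes called against mock with neither mimic numbered 648 with the brightness filter at the 60th percentile, which tests fewer genes, and 928 to 1654 without each array in turn. Genes moved in the same direction numbered 179 with no filter and 187 to 284 without each array in turn. Genes moved by let-7c alone, by miR-294 alone and in opposite directions numbered 1152 to 1519, 2365 to 2980 and 765 to 1120 without each array. Of 2991 values of the 167 named genes under alternatives, 2967 kept their direction and side of the threshold, 23 lost the call and 1 gained it, in Evx1, Hmga2, Krt18 and Pou5f1, and 0 reversed.

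With the replicate block 3731 genes were higher and 3500 lower. The classes then numbered 461 in the same direction, 1431 in opposite directions and 883 with neither mimic, against 328, 1123 and 1007 without it. The main fit had no term for the replicate number. The rule used here takes arrays as paired if every same-numbered pair correlates above 0.1. Deviations of same-numbered let-7c and miR-294 arrays correlated at 0.21, 0.25 and 0.03, so the rule was not met. The other same-numbered pairs were all above 0.1, at 0.42, 0.30 and 0.13 for let-7c with mock and 0.36, 0.27 and 0.28 for miR-294 with mock. Arrays with different numbers correlated between -0.36 and 0.15, so most same-numbered arrays shared part of their deviations. Let-7c replicate 3 correlated better with miR-294 replicate 2 (0.07) and mock replicate 2 (0.15) than with arrays of its own number. All 49 ribosome biogenesis genes and all 20 aminoacyl-tRNA synthetase genes tested were lower under every alternative run. The count of seed matches was not run. With 3 arrays per group, differences of genes near the brightness filter are the least certain.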

Other observations

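Probe sets without a name of a single gene were left out of the comparison but carry values of the same kind. Of 7499 such probe sets that passed the brightness filter, 703 were above the miR-294 level with let-7c and 1163 below it, together 24.9% (limma, adjusted over all probe sets past the filter), and 34 and 27 of these differed by at least 2-fold. Among the tested named genes 50.8% were called, 26.2% higher and 24.5% lower, with adjustment over those genes only.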
